A study of Homo sapiens with 6 samples.

Results

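The genes described here are 48 genes of autophagy and the lysosome, taken as a list of gene symbols from a table of 58735 gene rows. Each of the 48 symbols matched 1 row, and all 48 had enough expression to enter the test, beside 14847 genes tested in all. The list was divided by role into 10 initiation genes, 5 genes of membrane supply, 6 conjugation genes, 5 genes of the LC3 and GABARAP family, 4 receptors, 2 TFE factors, 11 lysosomal enzymes or enzyme cofactors and 5 genes of the lysosomal membrane and of cholesterol export.

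RNA of Huh7 cells, a long-used line from a human hepatocellular carcinoma, here kept in RPMI-1640 with fetal bovine serum, was sequenced in 6 libraries. Control cells carried a control short hairpin RNA (shcontrol, 3 libraries) and knockdown cells a short hairpin RNA against TRIM15 (shTRIM15, 3 libraries), a member of the tripartite motif family of ubiquitin ligases. The study's title places TRIM15 in a loop with AKT, FOXO1 and LASP1 that bears on the response of liver cancer cells to tyrosine kinase inhibitors, and the labels name no drug for these libraries. The number and sequences of hairpins and the origin of replicates (separate cultures or not) are not given in the sources used here, so loss of TRIM15 and effects of a hairpin on other genes cannot be told apart, and p-values measure the spread between these libraries, which may be technical.

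Macroautophagy encloses cytoplasm in a double membrane, the autophagosome, which fuses with lysosomes that digest the content. The ULK1 kinase complex and the PIK3C3 lipid kinase complexes start the membrane, ATG9A vesicles, ATG2 and WIPI proteins feed it, and a conjugation system attaches LC3 and GABARAP proteins to its lipids, where receptors such as SQSTM1 bind them. In liver cells the pathway supplies nutrients during fasting and removes lipid droplets and damaged mitochondria, and the TFE factors and FOXO factors are known regulators of its genes. Many lysosomal genes carry an E-box, CACGTG, to which TFE factors bind, within the CLEAR element.

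Promoters are shown first because this element lies in part of the list. RefSeq (GRCh38.p14) gave a promoter, 250 bases before to 50 after the start, for 41 of the 48 genes. It gave none for RB1CC1, UVRAG, MAP1LC3A, CTSB, HEXA, PSAP and LAMP2. The palindrome CACGTG reads the same on both strands and was found in 8 of the 41 (19.5%), against 7.435% of 27305 promoters of the same length. The longer palindrome TCACGTGA, which contains it, was found in 5 of 41 (12.2%) against 1.04% of all promoters. Of the lysosomal genes 6 of 12 with a promoter held CACGTG, against 2 of 29 of the other members. Single copies are listed only where they and the bases around them lie within the 250 bases before the start, which leaves 15. LAMP1, whose product is a major glycoprotein of the lysosomal membrane, held the most of these, 5. ULK1 and ATG9A are shown beside it as the genes with the largest rise and the largest fall past the test among those with a promoter entry, and neither window holds the palindrome. Each line gives the 250 bases before the start, 5′ to 3′ on the gene's strand, with CACGTG in capitals.
LAMP1 (chr13:113296989-113297238, plus strand): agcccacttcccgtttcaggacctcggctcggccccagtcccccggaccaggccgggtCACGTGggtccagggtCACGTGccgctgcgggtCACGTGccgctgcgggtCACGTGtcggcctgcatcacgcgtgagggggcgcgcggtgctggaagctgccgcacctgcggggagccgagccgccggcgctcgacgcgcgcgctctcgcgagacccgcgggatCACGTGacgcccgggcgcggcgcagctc
ULK1 (chr12:131894372-131894621, plus strand): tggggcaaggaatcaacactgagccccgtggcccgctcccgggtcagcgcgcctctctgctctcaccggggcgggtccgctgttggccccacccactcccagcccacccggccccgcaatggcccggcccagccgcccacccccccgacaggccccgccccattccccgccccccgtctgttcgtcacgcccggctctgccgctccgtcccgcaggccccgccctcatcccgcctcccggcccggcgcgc
ATG9A (chr2:219229637-219229886, minus strand): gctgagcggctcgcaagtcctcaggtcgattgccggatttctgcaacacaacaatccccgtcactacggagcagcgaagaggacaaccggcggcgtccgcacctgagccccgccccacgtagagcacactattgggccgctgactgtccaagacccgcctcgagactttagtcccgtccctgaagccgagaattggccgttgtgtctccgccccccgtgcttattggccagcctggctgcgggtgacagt

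The remaining 10 of these copies are shown as 20-base windows, again on the gene's strand with CACGTG in capitals. They give the exact letters around each listed match in the other 7 genes. Matches at the edges of the 250 bases or after the start are not shown. The TCACGTGA counted for ATG3 is in none of these windows.
CTSA (chr20:45891286-45891305, plus strand): agactgtCACGTGgcgccgg
CTSA (chr20:45891303-45891322, plus strand): cggagttCACGTGactcgta
ATG14 (chr14:55411839-55411858, minus strand): aaaatccCACGTGactggct
GAA (chr17:80101498-80101517, plus strand): gccgcgtCACGTGacccacc
GAA (chr17:80101543-80101562, plus strand): cgccggtCACGTGacccgcc
MCOLN1 (chr19:7522576-7522595, plus strand): aggcggtCACGTGaggggct
MCOLN1 (chr19:7522603-7522622, plus strand): accgggtCACGTGaccgagg
CTSD (chr11:1763962-1763981, minus strand): ccgcgccCACGTGaccggtc
ATG3 (chr3:112561968-112561987, minus strand): ctcacgtCACGTGccgggag
NEU1 (chr6:31862935-31862954, minus strand): gcgtgatCACGTGggaggag

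The 15 listed copies lie before the annotated start because only such copies were listed. A match describes letters in a promoter window and does not show that a factor binds there. Of the other motifs searched on both strands, the FOXO-type word GTAAACA was in 1 promoter of the list (CTSL, 2.44%) and in 3.41% of all. TGACNNNGC, the core to which NFE2L2 binds, was in 9 (21.95%) and in 13.6% of all, and the ATF4-type word TGATGNAA was in none of the 41 and in 3.67% of all.

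**Figure D1:**
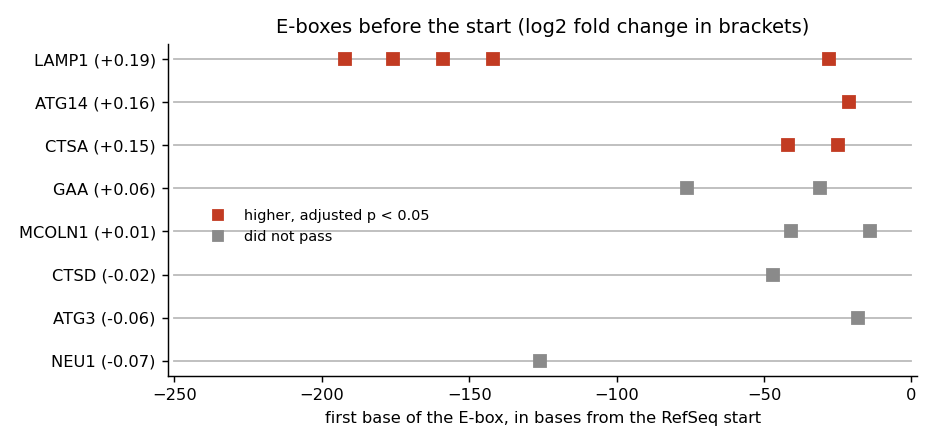
Position of each listed CACGTG copy (first base, in bases from the RefSeq start) in the 8 promoters that hold one, with the log2 fold change of the gene, knockdown over control, in brackets. Red squares mark genes that passed the test as higher and grey squares genes that did not pass. LAMP1 holds 5 of the listed copies and the other genes 1 or 2. Copies at the edges of the 250 bases before the start, or after it, are not drawn.

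The libraries held 17715210 to 18217903 reads in control and 17332508 to 19556855 in knockdown, and their log2 values correlated at 0.991 to 0.992 across genes within groups and 0.988 to 0.989 between groups. TRIM15 (chr6:30163206-30172696) was 5.17, 5.09 and 4.88 FPKM (read counts divided by gene length and by the depth of the library) in control and 3.23, 2.11 and 2.51 FPKM in knockdown, so that 51.8% of its control level was left. Its log2 fold change was -0.75 (SE 0.106, adjusted p = 0.00416), and the exact two-sided permutation test of its mean gave p = 0.1, the lowest that 3 libraries in each group permit. All 7 hepatocyte markers were detected, with summed levels of 1255 to 1280 FPKM in control and 1287 to 1311 FPKM in knockdown, and the lowest adjusted p among them was 0.0634 (HNF4A). Of 6 macrophage markers, 5 were below 0.5 FPKM in every library, and the list summed to 13.4 to 14.6 FPKM in control and 13.4 to 14.2 FPKM in knockdown, nearly all from CD14. Of 4 fibroblast markers, 2 were below 0.5 FPKM throughout, and the list summed to 6.29 to 6.41 FPKM in control and 5.36 to 5.89 FPKM in knockdown, where COL1A2 was lower (log2 fold change -0.18, adjusted p = 0.0365).

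In knockdown, genes at several steps of the pathway moved in opposite directions. The kinase gene ULK1, the PIK3C3 complex genes BECN1 and ATG14, WIPI2, ATG16L1, the receptor gene SQSTM1, TFE3, CTSA, CTSB and LAMP1 were higher. RB1CC1, UVRAG, ATG9A, WIPI1, ATG12, MAP1LC3B, GABARAPL1 and CTSZ were lower. No change among these 18 genes exceeded 0.31 in size on the log2(FPKM + 1) scale, which understates changes of low genes (RB1CC1 was -0.31 there and -0.36 with a pseudocount of 0.1), and the smallest was that of GABARAPL1 (-0.079).

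Of the 48 genes, 10 passed as higher and 8 as lower, at adjusted p under 0.05 over all genes tested. Over all genes tested 8.93% passed as higher (1326 genes) and 10.1% as lower (1498 genes), together 19.0%, against 37.5% of the list. The number lower was 3 to 5 when 1 library was left out (whichever library it was), 3 with the replicate block and 4 without a filter on low values or without a variance trend. The list is more abundant than most genes, with a median of 12.1 FPKM against 4.71 FPKM over all genes tested, and abundant genes passed more often. Among genes with a mean of at least 5 FPKM, 31.3% passed, against 17 of 39 genes of the list (43.6%). The median log2 fold change of the 48 genes was -0.013, beside 0.0014 over all genes tested, with 23 values above 0 and 25 below. The sign of the median of the 48 genes differed among the alternative fits, where it ran from -0.026 to 0.018. The median size of change was 0.19 for the 18 genes that passed and 0.22 for all genes that passed. For 27 of the 48 genes the 3 knockdown values did not overlap the 3 control values, or 56.2%, against 37.8% of all genes tested. At a mean of 5 FPKM or more, 25 of 39 genes of the list (64.1%) and 52.0% of all genes did not overlap. Of the 27 genes, 9 did not pass, namely PIK3C3, ATG2A, OPTN, CTSL, GAA, NEU1, GRN, NPC1 and NPC2.

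**Figure D2:**
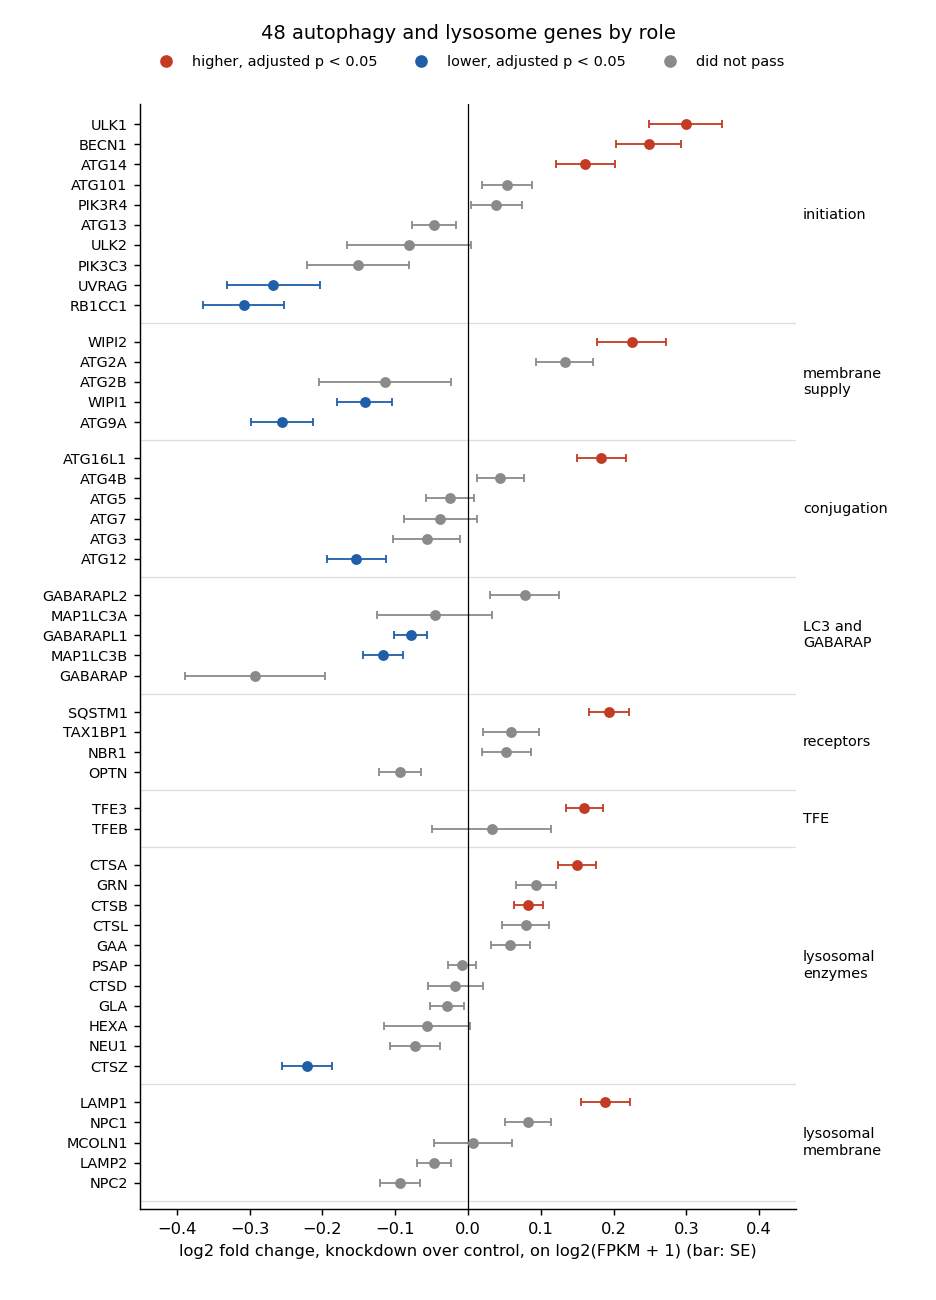
Log2 fold change of each of the 48 genes, knockdown over control on the log2(FPKM + 1) scale, grouped by role; bars are standard errors from the model with 3 libraries in each group. Red and blue points passed the test as higher (10 genes) or lower (8 genes), grey points did not; 7 of the 8 role groups hold points on both sides of 0.

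The test was repeated on whole reads recovered from the table (limma with voom weights), which called 28.2% of all genes and 23 of the 48 (47.9%). Of the 18 genes above, 16 passed there too, and WIPI1 and GABARAPL1 did not. The 7 genes that passed only in that fit were ATG2A, TAX1BP1, CTSL, GRN and NPC1 as higher and PIK3C3 and GABARAP as lower. The sign of the log2 fold change of each of the 18 genes was the same in all 14 alternative fits that were run. ULK1, RB1CC1, BECN1, ATG9A, ATG16L1, SQSTM1, TFE3, CTSA, CTSZ and LAMP1 passed in all 14. The share of all genes tested that passed in all 14 was not counted, so this number has no background beside it.

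Among the initiation genes, ULK1, the kinase that starts autophagosome formation (chr12:131894651-131923167), had 17.6, 15.8 and 15.4 FPKM in control and 20.0, 19.8 and 20.8 FPKM in knockdown. Every knockdown library was above every control library. Its mean rose from 16.3 ± 1.15 to 20.2 ± 0.534 FPKM (SD, n = 3), a log2 fold change of 0.30 (SE 0.0499, adjusted p = 0.00800). RB1CC1, also called FIP200, is the scaffold of the same complex (chr8:52622456-52745843). It had 5.58, 5.76 and 6.39 FPKM in control and 4.70, 4.68 and 4.35 FPKM in knockdown. The groups did not overlap, and the mean fell from 5.91 ± 0.425 to 4.57 ± 0.198 FPKM (SD, n = 3), which left 77.4% (log2 fold change -0.31, SE 0.0560, adjusted p = 0.0108). The kinase and its scaffold thus moved in opposite directions, and the ratio of their FPKM values was 3.15, 2.74 and 2.42 in control and 4.25, 4.23 and 4.79 in knockdown. This pair was chosen after the values were seen.

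The rest of the ULK complex did not pass. ATG13, the subunit that links the kinase to its scaffold, had 13.9 ± 0.382 FPKM in control and 13.4 ± 0.147 FPKM in knockdown (SD, n = 3; adjusted p = 0.351). ATG101, which stabilises ATG13, had 11.1 ± 0.388 and 11.6 ± 0.205 FPKM (SD, n = 3; adjusted p = 0.344). ULK2, the second kinase of this type, lay close to the filter on low values, with 0.636 ± 0.0345 and 0.547 ± 0.0613 FPKM (SD, n = 3; adjusted p = 0.572).

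In the lipid kinase complexes, BECN1 (chr17:42810134-42833350), the subunit that BCL2 proteins bind, had 6.15, 6.88 and 6.66 FPKM in control and 7.84, 8.09 and 8.003 FPKM in knockdown. All 3 knockdown values were above the control values. The mean rose from 6.57 ± 0.376 to 7.98 ± 0.124 FPKM (SD, n = 3), with a log2 fold change of 0.25 ± 0.0447 (SE; adjusted p = 0.0104). Of its exon bases, 4.68% lie opposite exons of PSME3, which had 33.0 FPKM in control and 32.2 FPKM in knockdown, and 12.4% opposite CNTD1, which was at 0.176 FPKM on average. Whether reads were counted by strand is not known from the labels, although the library kit was directional.

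ATG14 and UVRAG are alternative partners of BECN1: the complex with ATG14 acts at the forming autophagosome and the one with UVRAG at endosomes and later steps. ATG14 (chr14:55366392-55411858) had 9.55, 10.3 and 10.0 FPKM in control and 11.7, 11.2 and 10.9 FPKM in knockdown. UVRAG (chr11:75815167-76143195) had 3.32, 3.90 and 3.27 FPKM in control and 2.70, 2.73 and 2.75 FPKM in knockdown. Neither pair of groups overlapped: ATG14 rose by a log2 fold change of 0.16 (SE 0.0401, adjusted p = 0.0332) and UVRAG fell by 0.27 (SE 0.0638, adjusted p = 0.0289). The ratio of ATG14 to UVRAG FPKM, a pair chosen after the values were seen, was 2.88, 2.64 and 3.07 in control and 4.33, 4.09 and 3.96 in knockdown. Neither call held in most fits that left out 1 library, each of which has fewer libraries. ATG14 passed only where control library 2 was left out (adjusted p 0.0536 to 0.101 without each other library). UVRAG passed only without control library 1 or 3 (0.0564 to 0.0831 without each other library). In these fits the log2 fold change was 0.13 to 0.18 for ATG14 and -0.30 to -0.20 for UVRAG. Of the subunits common to both complexes, PIK3C3, the catalytic subunit, had 1.72 ± 0.133 FPKM in control and 1.45 ± 0.110 FPKM in knockdown without overlap (SD, n = 3; change on the log2 scale -0.15, adjusted p = 0.186). PIK3R4, its regulatory subunit, had 6.59 ± 0.152 and 6.80 ± 0.144 FPKM (SD, n = 3; adjusted p = 0.507). The 10 initiation genes together held 3 that rose and 2 that fell, with a median log2 fold change of -0.0036. Thus 50% of this small group passed, against 19.0% of all genes tested and 31.3% of those at 5 FPKM or more.

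In membrane supply, 1 of 5 genes rose and 2 fell (60%, against 19.0% of all genes tested), and the median log2 fold change was -0.11. ATG9A, the lipid scramblase carried by vesicles that seed the membrane (chr2:219219380-219229717), had 11.1, 10.7 and 10.2 FPKM in control and 8.74, 8.42 and 9.12 FPKM in knockdown. The lowest control library was above the highest knockdown library. Its mean fell from 10.7 ± 0.426 to 8.76 ± 0.349 FPKM (SD, n = 3), with a log2 fold change of -0.26 ± 0.0424 (SE; adjusted p = 0.00783). Of its exon bases 38.8% are shared on the same strand with the gene model AC068946.2, which was listed at 0.0352 FPKM on average, so the level of ATG9A depends on how shared reads were assigned.

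The WIPI proteins bind the lipid that PIK3C3 makes, and WIPI2 recruits ATG16L1. WIPI2 had 12.4, 11.7 and 11.2 FPKM in control and 13.8, 14.6 and 13.4 FPKM in knockdown. WIPI1 had 8.10, 8.53 and 8.39 FPKM in control and 7.18, 7.60 and 7.60 FPKM in knockdown. Neither gene's groups overlapped, and the paralogs moved apart: WIPI2 rose by a log2 fold change of 0.22 (SE 0.0470, adjusted p = 0.0181) and WIPI1 fell by 0.14 (SE 0.0376, adjusted p = 0.0408). WIPI2 no longer passed without control library 2 (0.0572) or knockdown library 1 (0.0522) or 2 (0.0566). WIPI1 passed in none of the 6 fits that left out 1 library (adjusted p 0.0524 to 0.119) nor with voom (adjusted p = 0.129). The ATG2 proteins transfer lipids into the membrane. ATG2A had 5.11, 5.14 and 5.13 FPKM in control and 5.60, 5.59 and 5.96 FPKM in knockdown, without overlap (log2 fold change 0.13, adjusted p = 0.0553). ATG2B had 1.25 ± 0.186 and 1.08 ± 0.128 FPKM (SD, n = 3; adjusted p = 0.445).

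Conjugation joins ATG12 to ATG5, and this pair with ATG16L1 directs LC3 proteins onto the membrane. ATG16L1 (chr2:233210051-233295674) had 9.01, 8.50 and 8.70 FPKM in control and 9.94, 10.2 and 10.0 FPKM in knockdown. The groups did not overlap, and the mean rose from 8.74 ± 0.258 to 10.1 ± 0.147 FPKM (SD, n = 3), with a log2 fold change of 0.18 ± 0.0335 (SE; adjusted p = 0.0110). ATG12, the ubiquitin-like partner, had 8.05, 8.07 and 8.47 FPKM in control and 7.43, 7.45 and 6.94 FPKM in knockdown. It fell by 0.15 on the log2 scale (SE 0.0405, adjusted p = 0.0404) without overlap. That call was lost in each of the 6 fits without 1 library (adjusted p 0.0696 to 0.113) and with correction for GC content (log2 fold change -0.055, adjusted p = 0.325).

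ATG5, the acceptor of ATG12, had 10.6 ± 0.178 FPKM in control and 10.4 ± 0.282 FPKM in knockdown (SD, n = 3; adjusted p = 0.660). ATG7, the E1-like enzyme, had 4.17 ± 0.269 and 4.03 ± 0.0587 FPKM (SD, n = 3; adjusted p = 0.661), and 18.1% of its exon bases lie opposite VGLL4, which had 4.36 FPKM in control and 6.33 FPKM in knockdown. ATG3, the E2-like enzyme for LC3, had 9.75 ± 0.398 and 9.33 ± 0.455 FPKM (SD, n = 3; adjusted p = 0.454). ATG4B, the protease that processes LC3, had 13.2 ± 0.292 and 13.7 ± 0.381 FPKM (SD, n = 3; adjusted p = 0.408). Within the group of 6 conjugation genes, 1 rose and 1 fell (33.3%, against 19.0% of all genes tested), with a median of -0.031.

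LC3 and GABARAP proteins are the ubiquitin-like proteins that coat the membrane. GABARAPL1 was the most abundant, with 57.3, 57.3 and 58.5 FPKM in control and 55.4, 53.5 and 54.9 FPKM in knockdown. MAP1LC3B, whose product is the usual marker of autophagosomes, had 25.4, 25.3 and 25.9 FPKM in control and 23.6, 24.0 and 22.8 FPKM in knockdown. Control values were above knockdown values throughout for both genes. The log2 fold change was -0.12 for MAP1LC3B (SE 0.0272, adjusted p = 0.0265) and -0.079 for GABARAPL1 (SE 0.0222, adjusted p = 0.0498). MAP1LC3B passed only without knockdown library 2 (adjusted p 0.0586 to 0.0826 without each other library), and GABARAPL1 in none of the 6 fits (0.0802 to 0.144).

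GABARAP had 3.44, 4.28 and 4.59 FPKM in control and 3.16, 2.86 and 3.44 FPKM in knockdown. One control library reached down to the highest knockdown library, and with a log2 fold change of -0.29 (SE 0.0963) it did not pass (adjusted p = 0.0799), whereas with voom it did (adjusted p = 0.0302). Of its exon bases 30.5% are shared on the same strand with AC120057.2, listed at 0 FPKM in these libraries. GABARAPL2, with 20.1 ± 0.776 and 21.2 ± 1.21 FPKM (SD, n = 3; adjusted p = 0.313), and MAP1LC3A, with 3.49 ± 0.385 and 3.34 ± 0.286 FPKM (SD, n = 3; adjusted p = 0.743), did not pass. Over the 5 genes the FPKM values summed to 109.6, 111 and 112 in control and 108, 105 and 105 in knockdown. GABARAPL1 made up 51.5 to 52.3% of this sum in control and 50.9 to 52.5% in knockdown.

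Receptors tie cargo to LC3. SQSTM1, also called p62, which binds ubiquitin and is itself degraded by autophagy (chr5:179806398-179838078), had 71.0, 72.9 and 68.9 FPKM in control and 81.5, 79.5 and 82.8 FPKM in knockdown. The lowest knockdown library was above the highest control library. The mean rose from 70.9 ± 1.996 to 81.3 ± 1.66 FPKM (SD, n = 3), or 115% of control (log2 fold change 0.19, SE 0.0273, adjusted p = 0.00420). It had the lowest adjusted p of the 48 genes. Of its exon bases 20.7% lie opposite MRNIP, which had 3.47 FPKM in control and 3.81 FPKM in knockdown, and 1.37% opposite MGAT4B, which had 45.8 FPKM in control and 50.5 FPKM in knockdown.

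OPTN, a receptor for damaged mitochondria and bacteria, had 17.8, 17.8 and 17.7 FPKM in control and 17.0, 16.1 and 16.6 FPKM in knockdown. These groups did not overlap either, but the gene did not pass (log2 fold change -0.093, adjusted p = 0.0642). NBR1, a relative of SQSTM1, had 11.0 ± 0.351 and 11.4 ± 0.208 FPKM (SD, n = 3; adjusted p = 0.344). TAX1BP1, a receptor for ubiquitinated cargo, had 25.5 ± 0.929 and 26.6 ± 1.01 FPKM (SD, n = 3; adjusted p = 0.344).

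TFE3 and TFEB are related factors known to bind E-boxes of the kind shown above, and binding to these promoters was not measured here. TFE3 (chrX:49028726-49043486) had 36.4, 37.4 and 38.0 FPKM in control and 41.3, 41.4 and 42.5 FPKM in knockdown. Its groups did not overlap, and the mean rose from 37.3 ± 0.852 to 41.7 ± 0.633 FPKM (SD, n = 3), with a log2 fold change of 0.16 ± 0.0253 (SE; adjusted p = 0.00658). TFEB had 1.36, 1.27 and 1.14 FPKM in control and 1.20, 1.51 and 1.23 FPKM in knockdown. These values overlapped, with a log2 fold change of 0.033 (adjusted p = 0.827), so TFE3 was the abundant one of the pair and the one that rose. Their activity is set largely by where the proteins lie in the cell, which RNA does not show.

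Among 11 lysosomal enzymes and cofactors 2 rose and 1 fell, with a median log2 fold change of -0.0080. CTSA, the serine carboxypeptidase that protects neuraminidase and beta-galactosidase (chr20:45890144-45898820), had 24.0, 25.1 and 24.3 FPKM in control and 27.6, 26.9 and 27.2 FPKM in knockdown. Its groups did not overlap (log2 fold change 0.15, SE 0.0260, adjusted p = 0.00909). CTSZ, a cysteine carboxypeptidase (chr20:58995185-59007247), had 82.1, 80.1 and 75.7 FPKM in control and 69.0, 68.6 and 66.0 FPKM in knockdown. Every knockdown library was below every control library, and the mean fell from 79.3 ± 3.28 to 67.9 ± 1.65 FPKM (SD, n = 3), which left 85.6% (log2 fold change -0.22, SE 0.0345, adjusted p = 0.00620). CTSB, an abundant cysteine protease, had 36.5, 36.9 and 36.8 FPKM in control and 38.9, 38.7 and 39.3 FPKM in knockdown. That rise to 106% had no overlap (log2 fold change 0.083, SE 0.0200, adjusted p = 0.0296), but it passed in none of the 6 fits without 1 library (adjusted p 0.0623 to 0.1005) nor with correction for GC content (log2 fold change 0.043, adjusted p = 0.197).

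The most abundant gene of the list was PSAP, the precursor of the saposins that help enzymes reach sphingolipids, with 373, 380 and 368 FPKM in control and 375, 366 and 375 FPKM in knockdown. Its values overlapped (log2 fold change -0.0080, adjusted p = 0.821). GRN, which yields the granulins, had 39.6 ± 1.19 and 42.3 ± 0.445 FPKM (SD, n = 3; adjusted p = 0.0545), and CTSL, a cysteine protease, had 48.9 ± 1.58 and 51.7 ± 1.48 FPKM (SD, n = 3; adjusted p = 0.140), both without overlap. CTSD, the main aspartic protease, had 57.2 ± 2.95 and 56.4 ± 0.817 FPKM (SD, n = 3; adjusted p = 0.796), with 41.7% of its exon bases shared on the same strand with AC068580.4. The glycosidases whose loss causes storage diseases did not pass. GAA had 21.5 ± 0.454 and 22.4 ± 0.346 FPKM (adjusted p = 0.186), GLA 50.9 ± 1.14 and 49.8 ± 0.357 FPKM (adjusted p = 0.452), NEU1 23.3 ± 0.494 and 22.1 ± 0.864 FPKM (adjusted p = 0.196) and HEXA 2.92 ± 0.204 and 2.77 ± 0.142 FPKM (adjusted p = 0.576), each as mean ± SD of 3 libraries.

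At the lysosomal membrane, LAMP1 (chr13:113297241-113323672) had 39.3, 37.5 and 37.9 FPKM in control and 45.7, 42.3 and 43.2 FPKM in knockdown. The groups did not overlap, and the mean rose from 38.2 ± 0.918 to 43.7 ± 1.74 FPKM (SD, n = 3), 114% of control (log2 fold change 0.19, SE 0.0340, adjusted p = 0.0105). LAMP2, its paralog, had 61.7 ± 0.997 FPKM in control and 59.7 ± 1.22 FPKM in knockdown (SD, n = 3; change on the log2 scale -0.046, adjusted p = 0.230). MCOLN1, the lysosomal calcium channel, had 9.19 ± 0.696 and 9.23 ± 0.245 FPKM (SD, n = 3; adjusted p = 0.951). NPC1 and NPC2, which together pass cholesterol out of the lysosome, differed in sign and did not pass. NPC1 had 7.45 ± 0.116 and 7.95 ± 0.123 FPKM (SD, n = 3; change on the log2 scale 0.082, adjusted p = 0.126), and NPC2 29.9 ± 0.713 and 28.0 ± 0.531 FPKM (SD, n = 3; change on the log2 scale -0.093, adjusted p = 0.0576). Neither gene's groups overlapped.

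**Figure D3:**
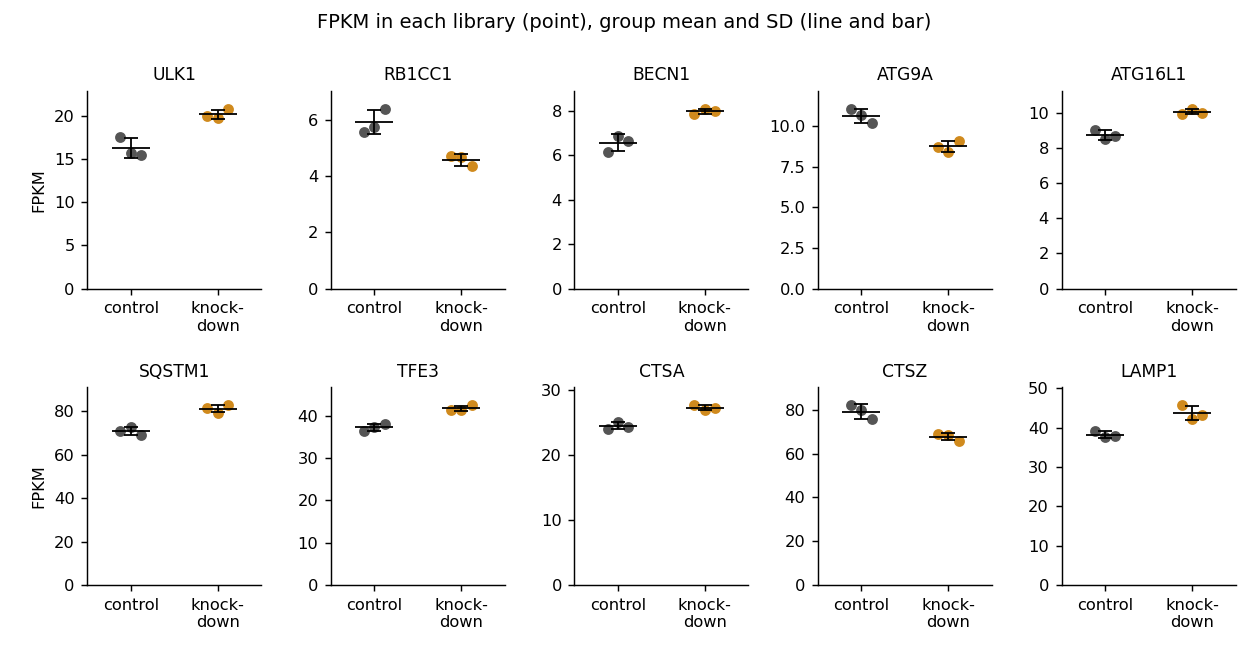
FPKM of the 10 genes that passed in all 14 alternative fits, in 3 control (grey) and 3 knockdown (orange) libraries; points are libraries, horizontal lines group means and bars SD, and each axis starts at 0. In each panel the 2 groups are apart, with RB1CC1, ATG9A and CTSZ lower and the other 7 genes higher in knockdown.

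Of the 8 genes with CACGTG in the promoter window, ATG14, CTSA and LAMP1 rose and the other 5 (ATG3, CTSD, GAA, NEU1 and MCOLN1) did not pass. Of the 33 genes with a promoter window but without the palindrome, 6 rose and 6 fell. The median log2 fold change was 0.03 in both sets. For the longer TCACGTGA it was 0.058 in the 5 genes with it, of which CTSA and LAMP1 rose, and 0.0075 in the 36 without. The difference between these medians was not tested. The number of listed copies varied among the genes that rose, with 5 in LAMP1, 2 in CTSA and 1 in ATG14, while GAA and MCOLN1 held 2 each.

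GC content moved with the fold changes of all genes. Tested protein-coding genes were divided by GC content into 5 bins of equal size. In the lowest bin (30.2 to 41.0%), 2.23% were higher and 25.8% lower in knockdown, and in the highest bin (58.6 to 74.5%) 19.4% were higher and 2.88% lower. The median log2 fold change ran from -0.081 in the lowest to 0.065 in the highest bin. Of the list, 6 genes lay in the lowest bin, where RB1CC1 and ATG12 fell, and 11 in the highest, where ULK1 and TFE3 rose and ATG9A fell. The median GC content was 54.7% for the 10 genes that rose, 48.1% for the 8 that fell and 50.5% for the others. With GC content and length of the transcripts removed from each library, an alternative added after the data were seen, 26.2% of 11641 genes and 20 of the 48 (41.7%) passed. Of the 18 genes, 16 still passed and ATG12 and CTSB did not, and CTSD, GABARAP, NEU1 and PSAP passed as lower. After the correction ULK1 had a log2 fold change of 0.24, RB1CC1 -0.20, BECN1 0.25, ATG9A -0.32, ATG16L1 0.15, SQSTM1 0.13, TFE3 0.093, CTSA 0.091, CTSZ -0.28 and LAMP1 0.14. The values of RB1CC1, TFE3 and CTSA were thereby more than 1.5 times smaller than without the correction. Beyond this correction, the part of GC content in the results was not tested.

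**Figure D4:**
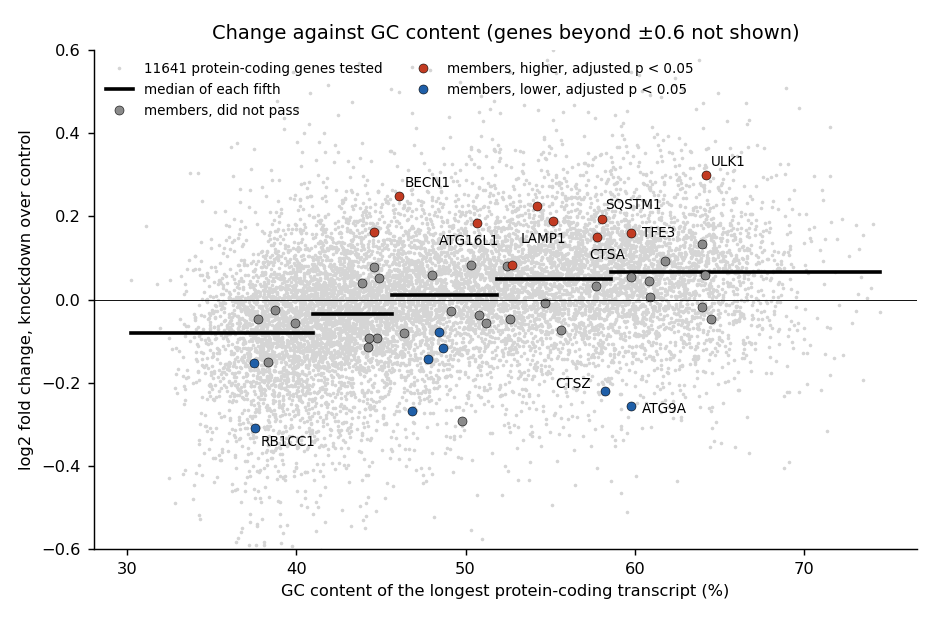
GC content of the transcript (percent) against log2 fold change, knockdown over control, for tested protein-coding genes (small points) and the 48 listed genes (large points, coloured by whether they passed), with black lines for the median of each of 5 GC bins; genes beyond the vertical axis are not shown. The median of all genes rises from -0.081 in the lowest to 0.065 in the highest of 5 GC bins, and ATG9A and CTSZ lie below 0 at high GC content.

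Around the 48 genes, 131 of 137 further genes of autophagy and the lysosome were tested in 7 lists, of which 16 rose and 15 fell (23.7%), with a median log2 fold change of 0.0074. This share lies near the 19.0% of all genes tested and below the 31.3% of genes at 5 FPKM or more, and the counts of single lists are given as descriptions. The number higher was 10 without a filter or with the replicate block, 30 with voom and 9 to 15 when 1 library was left out. Of 15 other genes of the autophagy machinery 2 passed (13.3%, below the 19.0% of all genes tested), both higher. TMEM41B, an endoplasmic reticulum scramblase needed for autophagosome formation, rose from 8.96 ± 0.411 to 12.0 ± 0.214 FPKM (SD, n = 3; change on the log2 scale 0.38, adjusted p = 0.00128), and AMBRA1, a partner of BECN1, rose from 4.89 ± 0.248 to 6.13 ± 0.125 FPKM (SD, n = 3; 0.28, adjusted p = 0.00673). Of 15 other cargo receptors and adaptors 5 passed (33.3%, against 19.0% of all genes tested and 31.3% at 5 FPKM or more), all lower. SEC62, a receptor for endoplasmic reticulum, fell from 22.7 ± 0.797 to 15.9 ± 0.521 FPKM (SD, n = 3; -0.49, adjusted p = 0.000429), and BNIP3L, also called NIX, a receptor for mitochondria, from 16.6 ± 0.440 to 12.2 ± 0.510 FPKM (SD, n = 3; -0.41, adjusted p = 0.000922). CALCOCO1, a further receptor for endoplasmic reticulum, fell as well (-0.21, adjusted p = 0.0362), but passed only without control library 1 (adjusted p 0.0545 to 0.107 without each other library). These 3 receptors, named for the largest changes of their list, were opposite in sign to SQSTM1. They also differ from it in GC content, with 36.7% for SEC62, 38.9% for BNIP3L, 52.1% for CALCOCO1 and 58.0% for SQSTM1. With correction for GC content the log2 fold changes were -0.37, -0.33, -0.23 and 0.13 in this order.

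Of 12 genes of autophagosome and lysosome fusion 2 passed (16.7%, below the 19.0% of all genes tested), both higher, namely the SNARE gene YKT6 (log2 fold change 0.11, adjusted p = 0.0334) and the tethering subunit gene VPS11 (0.18, adjusted p = 0.0396). YKT6 passed only without control library 2 (adjusted p 0.0601 to 0.104 without each other library) and VPS11 only without control library 1 (0.0564 to 0.112). With correction for GC content neither passed (adjusted p 0.126 for YKT6 and 0.0613 for VPS11). Of 16 genes of the vacuolar ATPase, the proton pump that acidifies lysosomes, 2 rose and 4 fell (37.5%, against 19.0% of all genes tested). ATP6V1C1 fell from 10.5 ± 0.911 to 8.13 ± 0.371 FPKM (SD, n = 3; -0.33, adjusted p = 0.0136) and the catalytic subunit gene ATP6V1A from 19.1 ± 0.745 to 15.7 ± 1.03 FPKM (SD, n = 3; -0.27, adjusted p = 0.0129). ATP6AP2, an accessory subunit gene, fell by 0.20 on the log2 scale (adjusted p = 0.0186) and did not pass without control library 3 (0.0536) or knockdown library 1 (0.0626) or 2 (0.0636).

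Among 33 other lysosomal enzymes 3 rose and 1 fell (12.1%, below the 19.0% of all genes tested). IDS, an enzyme of glycosaminoglycan breakdown, fell from 4.67 ± 0.0442 to 3.82 ± 0.122 FPKM (SD, n = 3; change on the log2 scale -0.24, adjusted p = 0.00887). CTSK, a cysteine protease, rose from 1.11 ± 0.0600 to 1.58 ± 0.141 FPKM (SD, n = 3; 0.29, adjusted p = 0.0324), but passed in none of the 6 fits without 1 library (adjusted p 0.0641 to 0.101) nor with voom (adjusted p = 0.0808). Among 15 other genes of the lysosomal membrane and of enzyme sorting 3 rose and 3 fell (40%, against 19.0% of all genes tested). SLC17A5, the sialic acid exporter, had the largest fall of the 7 lists, from 23.7 ± 0.816 to 16.4 ± 0.475 FPKM (SD, n = 3; -0.51, adjusted p = 0.000311). IGF2R, the receptor that sorts enzymes tagged with mannose 6-phosphate, rose from 17.2 ± 0.429 to 21.5 ± 0.448 FPKM (SD, n = 3; 0.30, adjusted p = 0.00110). MFSD8, a transporter-like membrane protein, fell by 0.29 (adjusted p = 0.0316), but passed only without control library 2 (adjusted p 0.0626 to 0.0959 without each other library).

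Among 25 genes that govern the pathway through mTORC1, AMPK and the partners of TFE factors 4 rose and 2 fell. That share is 24%, against 19.0% of all genes tested. MLST8, a subunit of both mTOR complexes, rose from 11.8 ± 0.656 to 14.4 ± 0.176 FPKM (SD, n = 3; change on the log2 scale 0.27, adjusted p = 0.00593). LAMTOR1, the membrane anchor of the Ragulator complex that brings mTORC1 to lysosomes, rose from 20.8 ± 0.746 to 25.1 ± 1.16 FPKM (SD, n = 3; 0.26, adjusted p = 0.00711). LAMTOR3, of the same complex, fell from 7.64 ± 0.441 to 6.28 ± 0.326 FPKM (SD, n = 3; -0.25, adjusted p = 0.0200) and did not pass without control library 2 (0.0658) or 3 (0.0611) or knockdown library 3 (0.0615). LAMTOR1 and LAMTOR3 thus passed in opposite directions, a pair named because of the size of its changes. Calls in both directions were common among all genes tested, with 8.93% higher and 10.1% lower.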

How the data were processed

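The authors deposited 1 table of FPKM values for the 6 libraries. Aligner and counter are not given in the sources used here. The submitters' processing notes list build mm10, a mouse build, but identifiers and positions of all 58735 rows equal those of GENCODE 29, so positions are on GRCh38. From the deposited FPKM and gene lengths, whole reads were recovered for 100% of values (tolerance 0.01), and their sums gave the depths. The size that each FPKM column was divided by was off this sum by -0.370 to -0.359% in control and 1.04 to 1.27% in knockdown, a scaling made before deposit. This offset differs between the groups and lowers knockdown FPKM against control FPKM, compared with division by the read sums. The median log2 fold change of the listed genes was -0.013 in the main fit and 0.0081 with voom on whole reads. The part of the offset in this shift was not tested.

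Genes with at least 0.5 FPKM in 3 or more libraries were compared on the log2(FPKM + 1) scale, which understates changes of low genes, with limma 3.58.1 in R 4.3.3 (mean-variance trend, two-sided, Benjamini-Hochberg adjustment over all 14847 genes). The test was also run on simulated data without a GC trend, where planted changes were larger than those of the listed genes that passed. That run therefore cannot show how reliable calls of the present size are. The alternatives were a pseudocount of 0.1, no filter on low values, quantile and median scaling, no variance trend, a replicate block, voom on whole reads, correction for GC content and length, and leaving out each library. The named genes were all 48, TRIM15, and from each further list up to 3 genes with the largest change past the threshold without overlap. One gene that this rule takes is not reported here. The members and lists were chosen with earlier results of these data known. Promoters came from RefSeq (GRCh38.p14). The promoter of LAMP1 was added after the motif search.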

Additional observations from a re-analysis of the deposited data

How the results depend on the processing

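All 18 calls kept their sign under every alternative. PSAP, not called, changed sign and passed as higher with quantile scaling (log2 fold change 0.068, adjusted p = 0.0207). With the GC and length correction it passed as lower (-0.059, adjusted p = 0.0284). Other genes not called also changed sign without passing, such as ATG101 with that correction (0.054 in the main fit and -0.0047). GABARAPL1 was not called with a pseudocount of 0.1 or with quantile or median scaling. ATG14, UVRAG, WIPI1, WIPI2, ATG12 and GABARAPL1 were not called without a filter, ATG14, WIPI1, ATG12, MAP1LC3B, GABARAPL1 and CTSB not without a variance trend, and these 6 with UVRAG not with the replicate block. Without a filter on low values 4 of the 48 genes were lower (3 of the 30 of autophagosome formation) and 10 of the further genes higher. Those 30 genes are the first 5 role groups together, with the 4 receptors included. Without a variance trend the numbers lower were 4 and 3. With quantile scaling 5 lysosomal genes were higher, and medians were 0.011 for the 48 genes and 0.034 for the lysosomal ones. With median scaling the median of the 48 was -0.0063. With voom 2360 genes of all, 6 lysosomal and 30 further genes were higher, and medians were 0.0081 (the 48), -0.027 (autophagosome formation), 0.021 (lysosomal) and 0.028 (further genes). With the GC and length correction 4 lysosomal genes were lower, and medians were -0.026 (the 48) and -0.025 (lysosomal). With the replicate block 883 genes of all, 8 of the 48 and 10 further genes were higher, and 3 of the 48 and 2 of autophagosome formation lower. The shared replicate numbers do not pair the libraries: same-numbered libraries deviated together with correlations of only 0.0086 to 0.013, although each correlated best with its own number. Leaving out 1 library gave 792 to 1115 genes higher and 978 to 1224 lower of all. Of the 48, 7 to 9 were then higher and 3 to 5 lower, with medians of -0.024 to 0.018. Of autophagosome formation 4 to 5 were higher and 2 to 4 lower, with medians of -0.047 to -0.029. Of the lysosomal genes 2 to 3 were higher, with medians of -0.024 to 0.023. Of the further genes 9 to 15 were higher and 10 to 14 lower, with medians of 0.0015 to 0.019. The cause of these differences was not tested, apart from the fewer libraries in each fit. The part of the scaling made before deposit, which differed between the groups, was not tested either. Genes with few reads were measured less precisely: the SE of the log2 fold change was 0.0850 for ULK2, with a mean of 107 reads, and 0.0194 for PSAP, with 22135.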
